A study of Homo sapiens with 11 samples.

Results

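The comparison described here sets the array of MV4-11 cells carrying shRNAs against RUNX1, RUNX2 and RUNX3 together against the array of the same line carrying an shRNA against luciferase (shLuc), a sequence with no target in human cells. Both arrays were chosen by their labels, not by any measured value, and they are 2 of 11 arrays in the series, with 1 array a side. MV4-11 is an established acute myeloid leukaemia line with a KMT2A rearrangement. The triple knockdown cells and the shLuc cells were each transduced with their own shRNAs and received doxycycline (3 µM, 24 hours), so both share the transduction and the antibiotic. The 6 other knockdown arrays, each 1 array of the same line, dose and time, hold shRUNX1+shRUNX3, shRUNX1+shRUNX2, shRUNX2+shRUNX3, shRUNX1, shRUNX2 and shRUNX3. The 3 other arrays of the series, those of compounds and of their DMSO control, were not part of the differences below. Nothing in the labels says whether arrays came from separate transductions. Each condition has 1 array, so the p-values below measure only the spread between arrays of different knockdowns. That spread may be technical or come from the different shRNA combinations.

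RUNX proteins bind DNA as a pair with CBFB and are known as regulators of blood cell formation. RUNX1 is needed for the first definitive blood stem cells and, with factors such as PU.1 and C/EBP alpha, for myeloid maturation. In maturing myeloid cells, division genes are generally turned down while receptors, lysosomal enzymes and antigen presentation genes are turned up. Those groups were listed here beside the cell cycle with earlier results of these data known, so their directions below are not predictions.

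The values are log2 transcript levels, and a log2 difference of 1 is 2-fold. Of 22109 genes with a transcript cluster of their own, 11907 reached the level filter of 3.80 on at least 1 of the 8 knockdown arrays, and all counts below are over these tested genes. A gene can pass that filter through its highest array alone, so the counts describe tested genes and not whole lists. Among the higher genes named below, ITGAX, IL31RA, HTR2B, CD38 and H6PD lay under the filter in shLuc. The lower genes ARSK, GGH, ALDH3B2 and NFE2 lay under it in the triple knockdown. PTTG1, CD22 and USP53 lay under it in the triple knockdown and in shLuc. Array medians over the tested genes lay between 5.91 and 5.96. Having 1 array per condition limits the precision. Of 10 myeloid markers, 8 had a cluster and 7 were tested, among them LYZ (lysozyme, median 11.48 over the 8 arrays), FLT3 (9.5) and SPI1 (PU.1, 8.61), while CD14 had a median of 2.45, under the filter. Of the few markers checked for other cell types, none of 3 B cell (PAX5, EBF1, MS4A1), 3 T cell (CD3D, CD3E, CD3G) and 2 fibroblast genes (COL1A1, COL1A2) reached the filter. KRT8 and KRT18 of 4 epithelial genes did, as did KLF1 of 2 erythroid genes and ITGA2B and PF4 of 3 megakaryocyte genes, with medians of 4.74, 3.57, 3.60, 3.69 and 5.24 in that order. Among other lymphoid genes, CD79A of B cells lay between 4.11 and 4.52 on the 8 arrays and CD7 of T cells reached 3.98. In bulk RNA, fewer cells of a type and less RNA per cell cannot be told apart.

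The targeted genes were checked first. RUNX2 read 5.82 in the triple knockdown, 6.13 in shRUNX1+shRUNX3, 5.70 in shRUNX1+shRUNX2, 5.56 in shRUNX2+shRUNX3, 6.30 in shRUNX1, 5.72 in shRUNX2, 6.00 in shRUNX3 and 6.14 in shLuc. The 4 arrays with the RUNX2 shRNA, the triple knockdown among them, lay below the 4 without it for RUNX2. RUNX3 read 7.66 in the triple knockdown, 7.65 in shRUNX1+shRUNX3, 8.37 in shRUNX1+shRUNX2, 7.87 in shRUNX2+shRUNX3, 7.70 in shRUNX1, 8.24 in shRUNX2, 7.76 in shRUNX3 and 8.15 in shLuc. For RUNX3 the groups with and without its shRNA overlapped through shRUNX1. RUNX1 is listed only on a cluster shared with LOC100506403, which read 3.96 in the triple knockdown and 4.30 in shLuc, the lowest and the second highest of the 8 arrays. The log2 differences were -0.33 for RUNX2, -0.49 for RUNX3 and -0.34 for the shared cluster, and the partner CBFB differed by -0.10. RUNX3 was thus as low on the shRUNX1 array as where its own shRNA was present, and the shRUNX1+shRUNX2 array read 4.26 on the shared cluster, above shRUNX3 (4.20) and shRUNX2+shRUNX3 (4.24), which lack the RUNX1 shRNA. The counts of the 2 limma fits without each of these 2 arrays are in the closing section. The list medians and the separations of arrays that use them were not recomputed without them.

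Against shLuc, 68 genes lay at least 2-fold higher in the triple knockdown (0.571% of the tested genes) and 106 lay at least 2-fold lower (0.89%). The median difference over all tested genes was 0.0034. With 1 array a side there is no replicate check of these differences and no test of them. The other arrays give the scale: with the shLuc array shared by all, shRUNX1+shRUNX3 had 59 genes higher and 181 lower, shRUNX1+shRUNX2 29 and 14, shRUNX1 12 and 11, shRUNX2 12 and 8, shRUNX3 9 and 19, and shRUNX2+shRUNX3 5 and 9. Of the 106 lower genes, 31 were on the lists of S phase or mitosis genes, which held 95 of all tested genes. The named higher genes included surface receptors such as LILRA2, ITGAX and CD38, secreted proteins such as SERPINF1, and enzymes such as ACSL1 and H6PD.

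**Figure D1:**
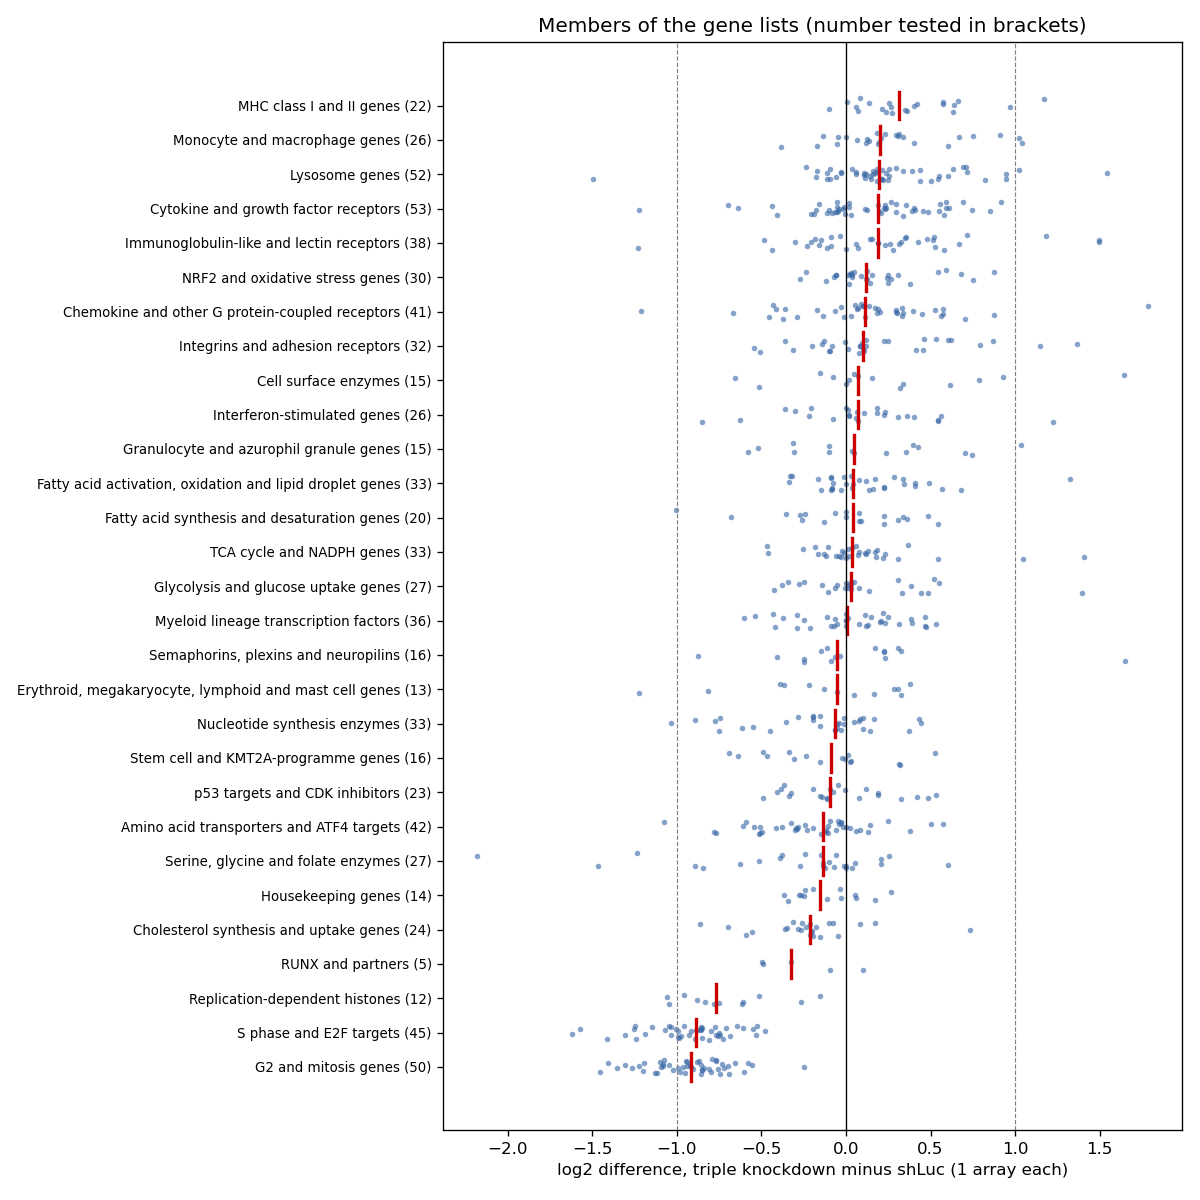
Log2 difference of the triple knockdown minus shLuc (x axis, 1 array each) for each tested member of 29 gene lists, ordered by median. Points are genes, red bars are list medians, and dashed lines mark 2-fold. The 3 cell division lists lie wholly below 0, with medians of -0.92, -0.89 and -0.77, and the other list medians lie between -0.33 and 0.31.

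Replication and division genes lay lower throughout. All 45 tested S phase and E2F target genes and all 50 tested G2 and mitosis genes were below shLuc, where 47.5% of all tested genes were, with medians of -0.89 and -0.92. At 2-fold, 14 S phase genes and 17 mitosis genes were lower, against 0.89% of all genes. E2F8 read 5.95 in the triple knockdown, 5.78 in shRUNX1+shRUNX3, 7.07 in shRUNX1+shRUNX2, 7.29 in shRUNX2+shRUNX3, 7.50 in shRUNX1, 7.45 in shRUNX2, 7.43 in shRUNX3 and 7.57 in shLuc. E2F7 read 5.44 in the triple knockdown, 5.67 in shRUNX1+shRUNX3, 6.21 in shRUNX1+shRUNX2, 6.75 in shRUNX2+shRUNX3, 6.75 in shRUNX1, 6.75 in shRUNX2, 6.80 in shRUNX3 and 7.02 in shLuc. E2F8 and E2F7 are atypical E2F factors that repress E2F targets late in S phase. Both had their 2 lowest levels in the triple knockdown and shRUNX1+shRUNX3, and shRUNX1+shRUNX2 was the next lowest.

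CCNB2 read 7.07 in the triple knockdown, 7.22 in shRUNX1+shRUNX3, 7.73 in shRUNX1+shRUNX2, 8.13 in shRUNX2+shRUNX3, 8.12 in shRUNX1, 7.99 in shRUNX2, 8.02 in shRUNX3 and 8.33 in shLuc. CCNB2 encodes cyclin B2, which drives entry into mitosis with CDK1. Its 3 lowest arrays were the triple knockdown and both pairs with the RUNX1 shRNA. CDKN3, a phosphatase acting on CDK1 and CDK2, had the same 3 arrays lowest, with 7.23 in the triple knockdown and 8.68 in shLuc. FOXM1, the forkhead factor that switches on mitotic genes, read 6.76 in the triple knockdown and 8.07 in shLuc. GINS1 and GINS2, parts of the replicative helicase, differed by -1.31 and -1.26. The proliferation marker MKI67 differed by -1.08, CDK1 by -1.1, the S phase cyclins CCNE2 and CCNE1 by -1.25 and -1.19, and E2F1 by -1.24. The smallest differences of the 2 lists were those of PTTG1 (securin, -0.25) and MCM7 (a helicase subunit, -0.48). PTTG1 read 3.33 in the triple knockdown and 3.57 in shLuc, both under the level filter. It was tested only through shRUNX1 (4.06) and shRUNX2+shRUNX3 (3.89), so its difference is between low readings. All 12 tested replication-dependent histone genes were below shLuc, with a median of -0.77, and H1-5 and H2BC3 were past 2-fold with -1.06 and -1.05.

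Low division genes were shared by the arrays that carried the RUNX1 shRNA together with another RUNX shRNA. Relative to the shared shLuc array, the S phase median was -0.89 in the triple knockdown, -1.04 in shRUNX1+shRUNX3, -0.46 in shRUNX1+shRUNX2 and -0.18 in shRUNX1, and it lay between -0.08 and -0.01 on the 3 arrays without the RUNX1 shRNA. For mitosis genes the median was -0.92 in the triple knockdown, -1.11 in shRUNX1+shRUNX3, -0.56 in shRUNX1+shRUNX2 and -0.08 in shRUNX1, and on the 3 arrays without the RUNX1 shRNA it was -0.12 in shRUNX2+shRUNX3, -0.20 in shRUNX2 and -0.08 in shRUNX3. The shRUNX1 array was thus not lower than these 3 for mitosis genes. Summing the 3 single knockdowns gave medians of -0.24 for S phase and -0.36 for mitosis beside the -0.89 and -0.92 measured in the triple knockdown, where the sum subtracts shLuc 3 times. For 31 of 45 S phase genes, all 4 arrays with the RUNX1 shRNA lay below all 4 without it, against 4.77% of all tested genes, but this held for 3 of 50 mitosis genes. Inhibitors of the cycle did not move together: of 23 tested p53 targets and CDK inhibitors, 8 were higher and 15 lower, with none past 1.5-fold in either direction (3.63% of all tested genes were past 1.5-fold higher and 4.31% lower), and CDKN1A (p21) differed by -0.38.

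**Figure D2:**
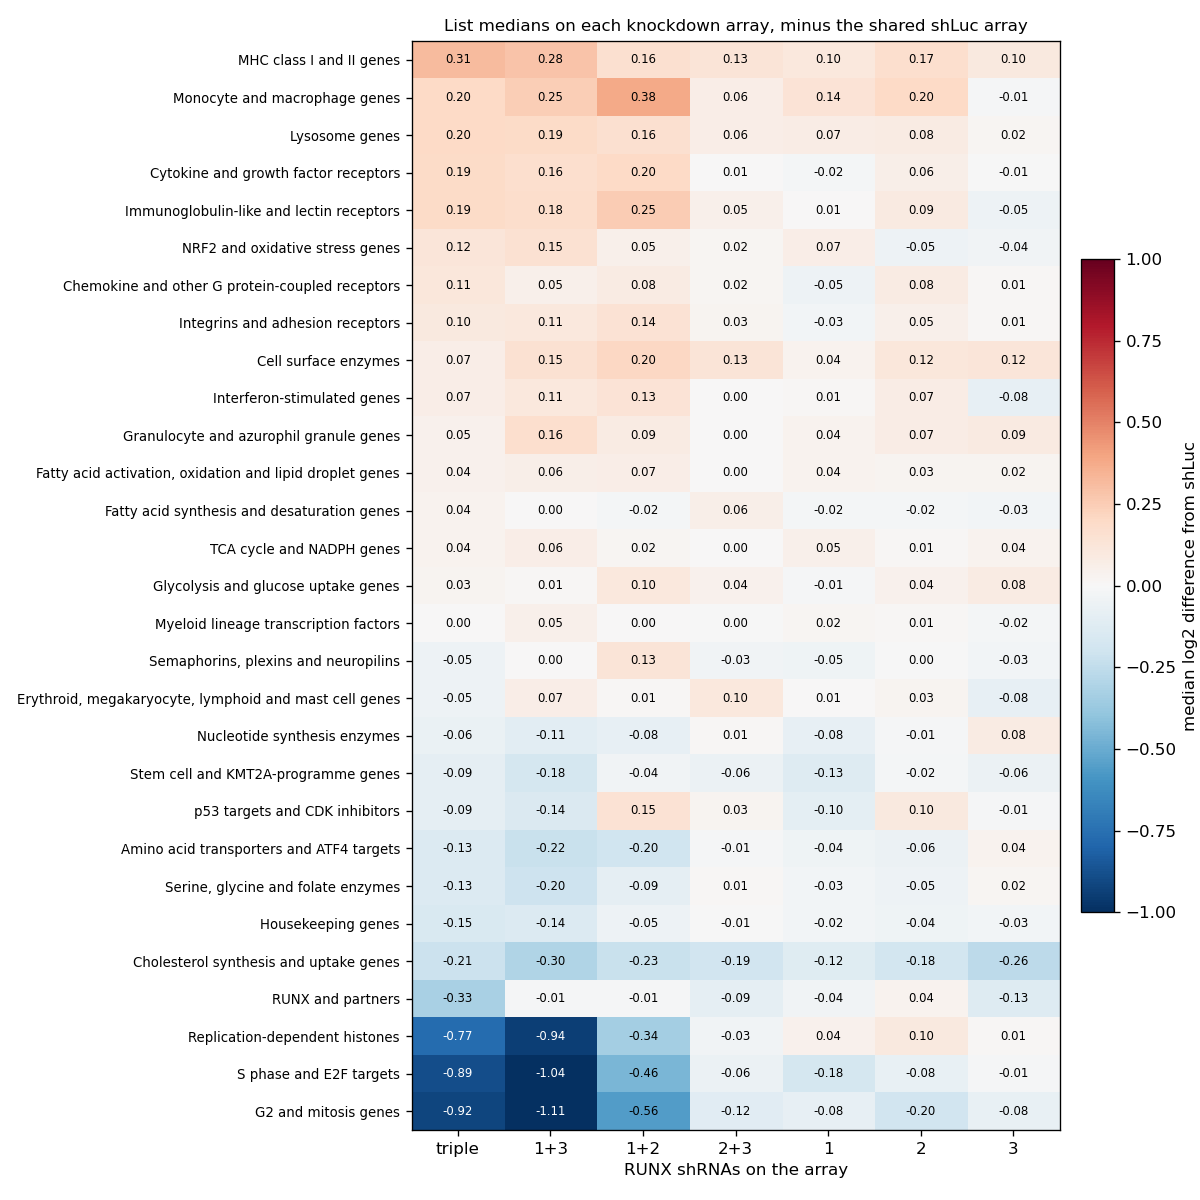
Median log2 difference from the shared shLuc array for each gene list (rows) on each of the 7 RUNX knockdown arrays (columns, named by their shRNAs, triple knockdown leftmost). Blue cells are below and red cells above shLuc. The cell division rows are blue on the triple, 1+3 and 1+2 arrays, reaching -1.11, and pale on the 4 others.

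The promoters of the lower genes carried letters that are known from cell cycle promoters. In windows of 250 bases before to 50 after the start site (RefSeq, GRCh38.p14), which 75 of the 106 lower genes had, the cell cycle homology region (CHR) motif TTTGAA was present in 36%, against 10.2% for the 9065 tested genes with a window and 15.6% for all 27305 promoters. An E2F motif (TTTCGCGC, TTTGGCGC, TTTCCCGC or TTTGCCGC) was present in 22.7%, against 5.24% and 3.27%, and the CCAAT box (CCAAT) in 58.7%, against 36.2% and 35.6%. All motifs were searched on both strands and counted separately, so a base may belong to more than 1 motif. The windows below show the pattern, which differed between the groups: the CHR motif stood in 70.5% of 44 mitosis windows and 2.5% of 40 S phase windows, and an E2F motif in 4.55% and 50%. CDKN3 and CCNB2 are mitotic genes with a CHR motif and CCAAT boxes, and GINS1 and E2F1 are S phase genes with E2F motifs and CCAAT boxes. Capitals mark these motifs on either strand. The windows are chr14:54396757-54397056 (plus strand) for CDKN3, chr15:59104896-59105195 (plus strand) for CCNB2, chr20:25407423-25407722 (plus strand) for GINS1 and chr20:33686336-33686635 (minus strand) for E2F1.
CDKN3: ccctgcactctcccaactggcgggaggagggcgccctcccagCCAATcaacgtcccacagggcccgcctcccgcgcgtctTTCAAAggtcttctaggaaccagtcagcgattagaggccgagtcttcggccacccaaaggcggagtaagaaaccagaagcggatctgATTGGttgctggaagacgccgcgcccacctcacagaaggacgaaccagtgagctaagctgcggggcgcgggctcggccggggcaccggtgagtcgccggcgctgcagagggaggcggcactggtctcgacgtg
CCNB2: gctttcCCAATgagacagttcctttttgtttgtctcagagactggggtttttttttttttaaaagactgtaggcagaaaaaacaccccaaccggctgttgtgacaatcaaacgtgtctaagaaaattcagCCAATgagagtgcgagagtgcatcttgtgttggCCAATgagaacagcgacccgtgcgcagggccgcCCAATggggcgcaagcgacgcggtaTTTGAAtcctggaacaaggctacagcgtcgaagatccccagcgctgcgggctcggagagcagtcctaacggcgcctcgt
GINS1: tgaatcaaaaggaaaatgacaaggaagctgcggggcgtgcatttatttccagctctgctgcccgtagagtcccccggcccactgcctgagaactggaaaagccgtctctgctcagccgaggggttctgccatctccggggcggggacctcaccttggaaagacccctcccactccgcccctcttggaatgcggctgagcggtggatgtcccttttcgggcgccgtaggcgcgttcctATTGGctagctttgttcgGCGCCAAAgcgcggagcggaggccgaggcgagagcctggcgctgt
E2F1: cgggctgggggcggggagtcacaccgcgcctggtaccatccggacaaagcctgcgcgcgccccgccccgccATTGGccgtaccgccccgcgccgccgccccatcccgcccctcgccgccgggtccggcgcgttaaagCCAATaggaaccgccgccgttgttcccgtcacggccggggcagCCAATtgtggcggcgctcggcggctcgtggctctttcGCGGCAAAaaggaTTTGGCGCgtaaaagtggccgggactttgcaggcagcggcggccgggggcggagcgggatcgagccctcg
A match of letters is a description of the window and not a binding site.

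**Figure D3:**
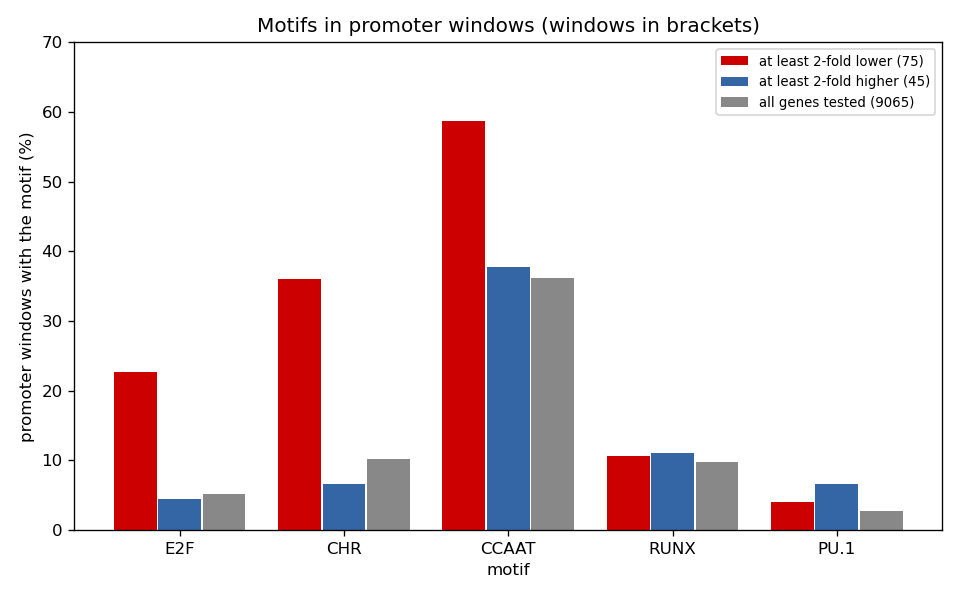
Percent of promoter windows (y axis) that hold each motif (x axis) among genes at least 2-fold lower (red, 75 windows), at least 2-fold higher (blue, 45 windows) and all tested genes (grey, 9065 windows). The red bars stand above the grey ones for E2F, CHR and CCAAT, and the 3 bars for RUNX lie between 9.8% and 11.1%.

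Markers of monocytes and macrophages lay higher on balance, by small amounts. Of 26 tested members, 20 were above shLuc (50.6% of all tested genes were) and 5 below, with a median of 0.20, and CD68 and THBD were past 2-fold. Over all 48 members with a cluster, without the level filter, the median was 0.0824. The rise was not particular to the triple knockdown. Against the shared shLuc array the median was 0.38 in shRUNX1+shRUNX2, 0.25 in shRUNX1+shRUNX3 and 0.06 in shRUNX2+shRUNX3. In the single knockdowns it was 0.14 in shRUNX1, 0.20 in shRUNX2 and -0.01 in shRUNX3. For 10 of the 26 members shLuc was the lowest of the 8 arrays, against 13.3% of all tested genes. CD68 read 10.33 in the triple knockdown, 10.29 in shRUNX1+shRUNX3, 10.23 in shRUNX1+shRUNX2, 9.71 in shRUNX2+shRUNX3, 9.92 in shRUNX1, 9.87 in shRUNX2, 9.67 in shRUNX3 and 9.29 in shLuc. CD68, a lysosomal membrane glycoprotein of macrophages, was highest in the triple knockdown and the pair arrays with the RUNX1 shRNA, and lowest in shLuc. THBD (thrombomodulin, a surface anticoagulant) read 7.67 in the triple knockdown and 6.65 in shLuc, but 8.05 in shRUNX1+shRUNX2. MS4A7, a tetraspan membrane protein of monocytes, differed by 0.91, with 7.91 in the triple knockdown and 7.0 in shLuc. The calprotectin genes S100A8 and S100A9, which mark neutrophils and monocytes, differed by -0.13 and -0.39, and FCER1G, the common chain of Fc receptors, by -0.17.

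Other lineage groups had no common direction. Among 15 tested granulocyte genes, 9 were higher and 6 lower with a median of 0.05: SERPINB10 differed by 1.04, the G-CSF receptor CSF3R by 0.74 and the interleukin-8 receptor CXCR2 by 0.70, while the granule protease CTSG differed by -0.52 and the cystatin CST7 by -0.58. The 36 tested myeloid transcription factors had a median of 0.0048, with IRF4 (0.53) and STAT3 (0.47) at the top and NFE2 (-0.60) and NFIL3 (-0.54) at the bottom. NFE2 read only 3.88 in shLuc and 3.27, under the level filter, in the triple knockdown. Of 16 stem cell and KMT2A-programme genes, 6 were higher and 10 lower with a median of -0.09, with CDK6 at 0.53, the receptor kinase KIT at -0.64 and the RNA-binding protein IGF2BP2 at -0.69. The 13 tested genes of erythroid, megakaryocyte, lymphoid and mast cells had a median of -0.05, and IL7R, the interleukin-7 receptor, was the single member past 2-fold with -1.23.

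Receptors of the immunoglobulin and lectin families split, with 24 of 38 tested members above shLuc, against 50.6% of all tested genes. Their median was 0.19, against 0.0727 over all 73 members without the level filter. LILRA2, IGSF6 and CD84 were past 2-fold higher and CLEC10A past 2-fold lower. LILRA2 read 7.10 in the triple knockdown, 6.98 in shRUNX1+shRUNX3, 6.54 in shRUNX1+shRUNX2, 5.60 in shRUNX2+shRUNX3, 5.68 in shRUNX1, 5.69 in shRUNX2, 5.54 in shRUNX3 and 5.60 in shLuc. LILRA2 is an activating receptor of monocytes that recognises cleaved immunoglobulins. Its 3 highest arrays were those with the RUNX1 shRNA and another RUNX shRNA. The 5 remaining arrays lay between 5.54 and 5.69, shRUNX1 among them.

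IGSF6 read 6.19 in the triple knockdown, 5.65 in shRUNX1+shRUNX3, 5.03 in shRUNX1+shRUNX2, 4.74 in shRUNX2+shRUNX3, 4.54 in shRUNX1, 4.74 in shRUNX2, 4.50 in shRUNX3 and 4.69 in shLuc. IGSF6, an immunoglobulin superfamily member first described in dendritic cells, had the same 3 arrays on top and the triple knockdown highest. CD84, a self-binding SLAM family receptor, read 5.26 in the triple knockdown and 4.08 in shLuc, with 4.44 to 5.24 on the 3 other arrays with the RUNX1 shRNA and 3.80 to 4.40 on the 3 other arrays without it. CLEC10A, a galactose-binding lectin of dendritic cells and macrophages, went the other way with 4.08 in the triple knockdown and 5.31 in shLuc, but shRUNX2 at 5.32 was as high as shLuc while shRUNX3, shRUNX2+shRUNX3 and shRUNX1 were at 4.62, 4.21 and 4.43. The 4 arrays with and the 4 without the RUNX1 shRNA overlapped for CLEC10A. FCER2 (CD23, the low-affinity IgE receptor) read 7.22 in the triple knockdown and 5.78 in shLuc.

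**Figure D4:**
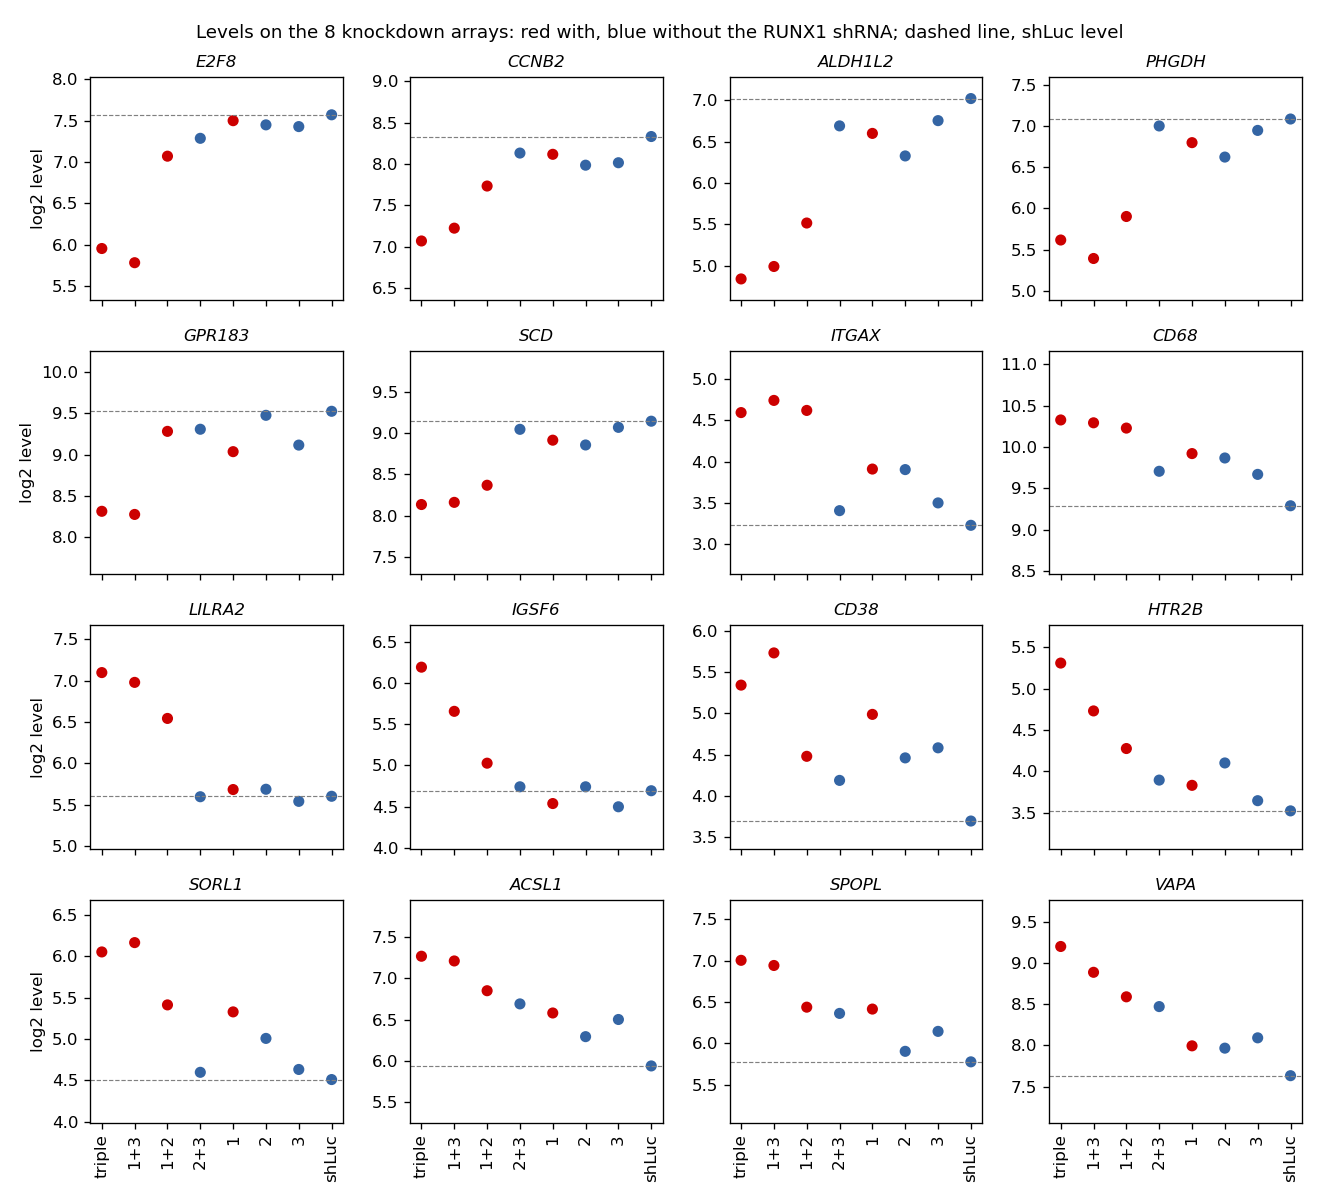
Log2 levels (y axes, equal in height) of 16 genes on the 8 knockdown arrays (x axes, triple knockdown at the left and shLuc at the right, named by their shRNAs). Red points are the 4 arrays with the RUNX1 shRNA, blue points the 4 without it, and the dashed line is the shLuc level. E2F8, LILRA2 and IGSF6 separate the arrays with 2 or more shRNAs including that of RUNX1, while for CD38, ACSL1 and VAPA shLuc is the lowest array and the others spread above it.

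Adhesion receptors had 2 of 32 tested members at least 2-fold higher, against 0.571% of all tested genes. ITGAX read 4.59 in the triple knockdown, 4.74 in shRUNX1+shRUNX3, 4.62 in shRUNX1+shRUNX2, 3.41 in shRUNX2+shRUNX3, 3.91 in shRUNX1, 3.90 in shRUNX2, 3.50 in shRUNX3 and 3.23 in shLuc. ITGAX (CD11c) is the alpha chain of a complement receptor of monocytes and dendritic cells, and its 3 highest arrays were again the triple knockdown and both pairs with the RUNX1 shRNA. ICAM3, a ligand of LFA-1 on resting leukocytes, read 6.03 in the triple knockdown and 4.88 in shLuc. ITGA4, the alpha chain of VLA-4, differed by 0.87, and CD151, a tetraspanin partner of integrins, by -0.55. Over the list, 21 of 32 tested members were above shLuc, against 50.6% of all tested genes, with a median of 0.10.

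Among 53 tested cytokine and growth factor receptors, 32 were above shLuc with a median of 0.19, where 50.6% of all tested genes were above. None was 2-fold higher, but only 0.571% of all tested genes were. The median was 0.0235 over all 73 members without the level filter, and 0.11 against the mean of the 4 arrays without the RUNX1 shRNA. The largest were TLR5, the flagellin receptor (0.92), TNFRSF14, the herpesvirus entry mediator (0.85), and CSF3R. IL7R read 5.68 in the triple knockdown, 5.27 in shRUNX1+shRUNX3, 7.28 in shRUNX1+shRUNX2, 6.90 in shRUNX2+shRUNX3, 6.31 in shRUNX1, 6.91 in shRUNX2, 6.36 in shRUNX3 and 6.91 in shLuc. IL7R was low on the 2 arrays with both the RUNX1 and RUNX3 shRNAs and highest on shRUNX1+shRUNX2. IL31RA, the interleukin-31 receptor, which is not on that list, lay among the 30 highest genes with 4.54 in the triple knockdown and 3.07 in shLuc, and its values on the other arrays without the RUNX1 shRNA were 3.51 to 3.82.

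Chemokine and other G protein-coupled receptors held HTR2B, the named gene with the highest difference of 1.79. HTR2B read 5.31 in the triple knockdown, 4.73 in shRUNX1+shRUNX3, 4.28 in shRUNX1+shRUNX2, 3.89 in shRUNX2+shRUNX3, 3.83 in shRUNX1, 4.10 in shRUNX2, 3.65 in shRUNX3 and 3.52 in shLuc. HTR2B is a serotonin receptor that macrophages can express. The triple knockdown was 0.58 above the next array. GPR183 read 8.31 in the triple knockdown, 8.27 in shRUNX1+shRUNX3, 9.28 in shRUNX1+shRUNX2, 9.31 in shRUNX2+shRUNX3, 9.03 in shRUNX1, 9.47 in shRUNX2, 9.11 in shRUNX3 and 9.52 in shLuc. GPR183 (EBI2) guides leukocytes along oxysterol gradients, and it was low on the 2 arrays with the RUNX1 and RUNX3 shRNAs and near shLuc on shRUNX1+shRUNX2. PTAFR, the platelet-activating factor receptor, differed by 0.87. In all, 28 of 41 tested members were above shLuc, against 50.6% of all tested genes. The median was 0.11, and it was 0.0699 over all 84 members without the level filter.

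Of 16 tested semaphorins, plexins and neuropilins, 7 were higher and 9 lower, with a median of -0.05. Of these guidance molecules, SEMA6B was past 2-fold with 6.63 in the triple knockdown and 4.98 in shLuc. All 7 RUNX knockdown arrays exceeded shLuc by at least 0.67 for SEMA6B, and against the mean of the 4 arrays without the RUNX1 shRNA the difference was 0.87. NRP1, a co-receptor for semaphorins and VEGF, differed by -0.87. CD38 read 5.34 in the triple knockdown, 5.73 in shRUNX1+shRUNX3, 4.48 in shRUNX1+shRUNX2, 4.19 in shRUNX2+shRUNX3, 4.99 in shRUNX1, 4.46 in shRUNX2, 4.58 in shRUNX3 and 3.70 in shLuc. CD38, a surface enzyme that consumes NAD and is known to be induced by retinoids in myeloid leukaemia lines, had shLuc as the lowest array and shRUNX1+shRUNX3 as the highest. BST1, a relative of CD38, differed by 0.78, ADA2 (a secreted adenosine deaminase of monocytes) by 0.93 and ANPEP (CD13) by -0.66. Of 15 tested cell surface enzymes, 10 were higher and 4 lower, with a median of 0.07.

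Antigen presentation genes lay higher, with 21 of 22 tested MHC members above shLuc, against 50.6% of all tested genes, and a median of 0.31. HLA-DRA read 7.62 in the triple knockdown, 7.76 in shRUNX1+shRUNX3, 7.59 in shRUNX1+shRUNX2, 7.20 in shRUNX2+shRUNX3, 7.29 in shRUNX1, 7.30 in shRUNX2, 6.97 in shRUNX3 and 6.45 in shLuc. HLA-DRA, the alpha chain of HLA-DR, was lowest in shLuc by 0.52, and the 7 other arrays lay between 6.97 and 7.76. PSMB9, an immunoproteasome subunit, differed by 0.97 and HLA-E, a ligand of NK cell receptors, by 0.66. For 12 of the 22 genes shLuc was the lowest of the 8 arrays, against 13.3% of all tested genes, and against the mean of the 4 arrays without the RUNX1 shRNA the median was 0.20. Interferon-stimulated genes had a median of 0.07 over 26 members, with SAMD9L at 1.23 and the ISG15 protease USP18 at -0.63.

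Lysosomal genes also lay higher, 41 of 52 above shLuc, against 50.6% of all tested genes, with a median of 0.20. SORL1 read 6.05 in the triple knockdown, 6.17 in shRUNX1+shRUNX3, 5.41 in shRUNX1+shRUNX2, 4.60 in shRUNX2+shRUNX3, 5.33 in shRUNX1, 5.01 in shRUNX2, 4.63 in shRUNX3 and 4.51 in shLuc. SORL1 is a sorting receptor between Golgi and endosomes. GM2A, the activator of ganglioside breakdown, read 7.54 in the triple knockdown and 6.51 in shLuc, and PSAP, the precursor of the saposins, read 8.48 and 7.54 on the same arrays. ARSK, a lysosomal sulfatase, was the exception past 2-fold, with 2.85 in the triple knockdown and 4.34 in shLuc and the 6 other arrays between 3.06 and 3.93. AOAH, which removes acyl chains from bacterial lipopolysaccharide and is on no list, differed by 1.33, with 4.81 to 5.24 on the 3 other arrays with the RUNX1 shRNA and 4.18 to 4.65 on the 3 other arrays without it.

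Among the enzymes of serine, glycine and folate metabolism, ALDH1L2 and PHGDH lay lowest. ALDH1L2 read 4.84 in the triple knockdown, 4.99 in shRUNX1+shRUNX3, 5.52 in shRUNX1+shRUNX2, 6.69 in shRUNX2+shRUNX3, 6.60 in shRUNX1, 6.33 in shRUNX2, 6.76 in shRUNX3 and 7.02 in shLuc. ALDH1L2 oxidises 10-formyltetrahydrofolate in mitochondria, yielding NADPH. PHGDH read 5.62 in the triple knockdown, 5.39 in shRUNX1+shRUNX3, 5.90 in shRUNX1+shRUNX2, 7.0 in shRUNX2+shRUNX3, 6.80 in shRUNX1, 6.62 in shRUNX2, 6.94 in shRUNX3 and 7.08 in shLuc. PHGDH catalyses the first step of serine synthesis from glycolysis. Both genes were low on the triple knockdown and the 2 pairs with the RUNX1 shRNA, with all 5 remaining arrays above them.

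GGH, which trims folate polyglutamates, was the third serine, glycine and folate gene past 2-fold, with 3.66 in the triple knockdown and 4.89 in shLuc. The list was not lower as a whole: 19 of 27 tested members were below shLuc, against 47.5% of all tested genes. Its median was -0.13, and MAT2B, a regulator of methionine adenosyltransferase, was at 0.60. ASNS, asparagine synthetase and a target of ATF4, read 5.54 in the triple knockdown and 6.61 in shLuc, with 5.68 to 6.24 on the 3 other arrays with the RUNX1 shRNA and 6.25 to 6.51 on the 3 other arrays without it. Of 42 tested amino acid transporters and ATF4 targets, 32 were lower with a median of -0.13. Housekeeping genes had 10 of 14 tested members lower with a median of -0.15. List medians of this size were therefore not particular to the serine, glycine and folate list or the amino acid list. The glutamine transporter SLC1A5 differed by -0.78 and the glycine transporter SLC6A9 by -0.77. SLC7A11, which imports cystine, was at 0.38 and the mTORC1 inhibitor DDIT4 at 0.50.

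Nucleotide synthesis enzymes had a median of -0.06 over 33 tested members, and the lowest were the S phase enzymes TK1 (thymidine kinase, -1.04), TYMS (thymidylate synthase, -0.89) and DTYMK (thymidylate kinase, -0.77). SAMHD1, which degrades dNTPs, and the mitochondrial TK2 were at the top with 0.44 and 0.43.

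Sterol and fatty acid genes differed from each other. Of 24 tested cholesterol genes, 21 were below shLuc with a median of -0.21, led by ACAT2 (-0.86) and SQLE (squalene epoxidase, -0.70), but shLuc was the highest of the 8 arrays for 14 of them, against 14% of all tested genes. Against the mean of the 4 arrays without the RUNX1 shRNA the median was -0.06, so the list median moved towards 0 without shLuc as the only reference. SCD read 8.13 in the triple knockdown, 8.16 in shRUNX1+shRUNX3, 8.37 in shRUNX1+shRUNX2, 9.04 in shRUNX2+shRUNX3, 8.91 in shRUNX1, 8.85 in shRUNX2, 9.07 in shRUNX3 and 9.14 in shLuc. SCD, the stearoyl-CoA desaturase, was low on the triple knockdown and the 2 pairs with the RUNX1 shRNA, and the 20 fatty acid synthesis genes around it had a median of 0.04. FADS2, another desaturase, differed by -0.68.

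Among enzymes of energy metabolism, 4 were past 2-fold higher: ACSL1, FBP1, H6PD and RPIA. ACSL1, which activates long-chain fatty acids with coenzyme A, is described with the fits below, and its relative ACSL5 differed by 0.68. FBP1, the gluconeogenic phosphatase, read 6.63 in the triple knockdown and 5.23 in shLuc, but 5.85 to 6.14 on the 3 other arrays without the RUNX1 shRNA, so that shLuc stood alone at the bottom. H6PD read 5.17 in the triple knockdown, 5.12 in shRUNX1+shRUNX3, 3.83 in shRUNX1+shRUNX2, 3.62 in shRUNX2+shRUNX3, 4.29 in shRUNX1, 3.75 in shRUNX2, 3.99 in shRUNX3 and 3.76 in shLuc. H6PD makes NADPH inside the endoplasmic reticulum, and it was high on the 2 arrays with the RUNX1 and RUNX3 shRNAs. RPIA, an isomerase of the pentose phosphate pathway, read 7.03 in the triple knockdown and 5.98 in shLuc. The lists they belong to had medians near 0, namely 0.03 for 27 glycolysis genes, 0.04 for 33 TCA cycle and NADPH genes and 0.04 for 33 fatty acid oxidation genes, and the glucose transporter SLC2A1 differed by -0.43. NRF2 and oxidative stress genes were above shLuc in 24 of 30 cases, against 50.6% of all tested genes, with a median of 0.12. None was past 2-fold, where 0.571% of all tested genes were higher and 0.89% lower. TXNIP (0.88), glutathione reductase GSR (0.75) and haem oxygenase HMOX1 (0.68) were on top.

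Secreted proteins on the higher side included the chemokines CCL23 (1.36) and CCL5 (1.22) and the serpin SERPINF1 (PEDF, an inhibitor of angiogenesis), which read 9.07 in the triple knockdown and 7.53 in shLuc with the 6 other arrays between 7.91 and 9.15. DAPP1, an adaptor downstream of PI3 kinase, differed by 1.44, SESN3, a stress-induced inhibitor of mTORC1, by 1.33, and LRRC25, a leucine-rich repeat membrane protein of myeloid cells, by 1.36. F3 (tissue factor), on the lower side, read 5.66 in the triple knockdown and 7.05 in shLuc, with 6.00 to 7.06 on the 3 other arrays with the RUNX1 shRNA.

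Many of the higher and of the lower genes had shLuc at one end of the 8 arrays. Of the 68 higher genes, 49 (72.1%) had shLuc as the lowest of the 8 arrays, against 13.3% of all tested genes, and 44 had the triple knockdown as the highest. Of the 106 lower genes, 64 (60.4%) had shLuc as the highest, against 14%, and 35 had the triple knockdown as the lowest. All 4 arrays with the RUNX1 shRNA lay above the 4 without it for 20 of the higher genes (29.4%, against 5.21% of all tested genes), and below them for 29 of the lower genes (27.4%, against 4.77%). These shares follow in part from how the genes were picked, since a gene chosen for its distance between 2 arrays tends to have these 2 at its ends. When the mean of the 4 arrays without the RUNX1 shRNA stood in for shLuc, 31 of the 68 and 55 of the 106 genes stayed 2-fold apart, and with the 3 of these arrays that leave shLuc out, 21 and 47 did. The receptors LILRA2 (1.49) and IGSF6 (1.52) and the enzymes ALDH1L2 (-1.86) and PHGDH (-1.29) kept their size against the 4-array mean, while HLA-DRA (0.64), FBP1 (0.81), SEMA6B (0.87) and CD68 (0.69) were under 2-fold.

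The 6 other knockdown arrays share neither the triple nor the shLuc array and so give a separate reading of the same genes, 3 arrays with the RUNX1 shRNA against 3 without it. The side with the RUNX1 shRNA holds 2 pairs and 1 single knockdown and the side without it 1 pair and 2 singles, so the presence of the RUNX1 shRNA is mixed with the number of shRNAs, as it also is in the 4 against 4 arrays above. In a limma fit on these 6 arrays 0 genes passed an adjusted p of 0.05 (smallest adjusted p = 0.497), and 644 higher (5.41%) and 509 lower genes (4.27%) had an unadjusted p under 0.05. Setting the 3 pairs against the 3 singles also called 0 genes in limma, with 391 higher and 295 lower at an unadjusted p under 0.05. Of the 68 genes higher in the triple knockdown, 62 were higher here too, with a median of 0.40, and of the 106 lower genes 98 were lower, with a median of -0.50. Over all 11907 genes, 52.2% were higher and 47.8% lower. The S phase median was -0.53 and the mitosis median -0.46, with every tested member of both lists lower, and the monocyte median was 0.16 with 25 of 26 higher. PHGDH averaged 6.03 ± 0.71 with and 6.86 ± 0.204 without the RUNX1 shRNA (SD over 3 arrays of different knockdowns on each side, not replicates). ITGAX averaged 4.42 ± 0.449 with and 3.60 ± 0.264 without it, and LILRA2 6.40 ± 0.66 with and 5.61 ± 0.074 without it, where the wide SD comes from shRUNX1, which lay with the arrays without the RUNX1 shRNA. CD84 averaged 4.76 ± 0.422 with and 4.0 ± 0.344 without it. HTR2B, among the highest genes in the triple knockdown, averaged 4.28 ± 0.45 with and 3.88 ± 0.229 without it. The 2 groups overlapped for PHGDH, LILRA2 and HTR2B, where shRUNX1 lay among the arrays without the RUNX1 shRNA. For ITGAX and CD84 the lowest array with the RUNX1 shRNA lay only just above the highest without it. The share of all tested genes so separated on these 6 arrays was not counted. None of these 5 genes passed the adjusted threshold. Cholesterol genes had a median of -0.0031 on these arrays.

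**Figure D5:**
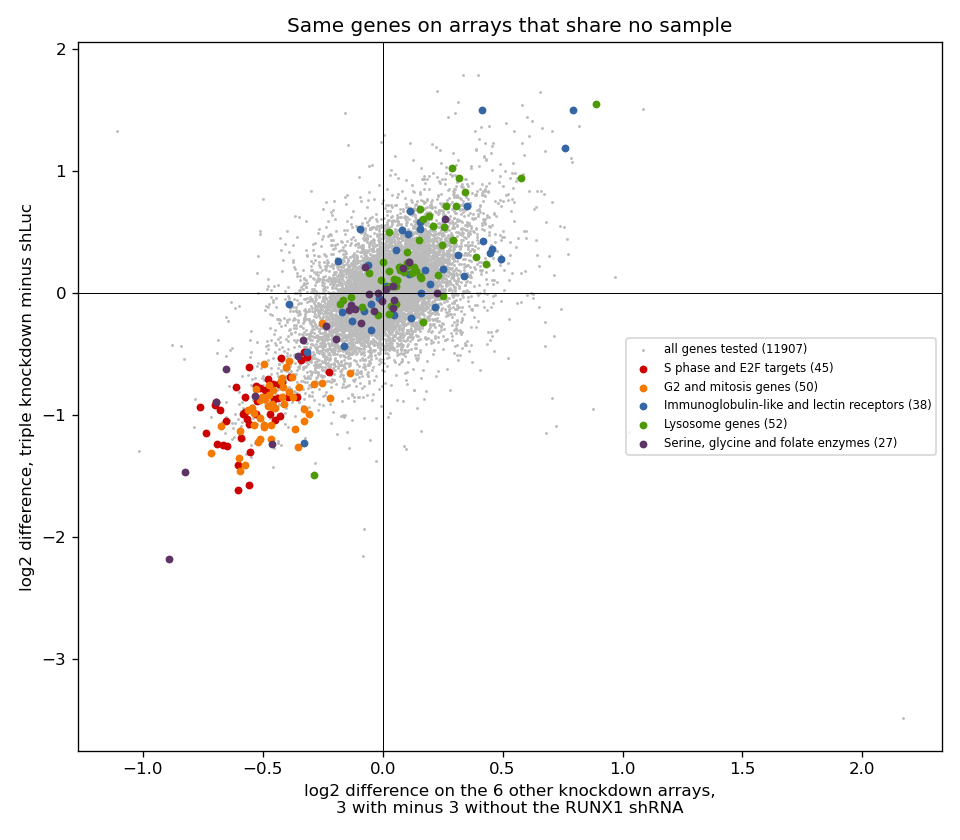
Log2 difference of the triple knockdown minus shLuc (y axis) against the log2 difference of the 3 arrays with minus the 3 arrays without the RUNX1 shRNA among the 6 other knockdown arrays (x axis), 1 point per tested gene. The axes share no array. All S phase and mitosis genes (red and orange) lie at the lower left, as do ALDH1L2 and PHGDH (purple, -2.18 and -1.46 on the y axis), and Pearson's r over the 11907 genes was 0.565 (Spearman's rho 0.511), a description across genes, which are not independent replicates.

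An additive fit in limma over all 8 knockdown arrays, which sums the effects of the 3 shRNAs with 4 residual degrees of freedom, called 3 genes higher (0.0252% of the tested genes) and 0 lower at an adjusted p of 0.05, while 1274 higher (10.7%) and 1172 lower genes (9.84%) had an unadjusted p under 0.05. ACSL1 read 7.27 in the triple knockdown, 7.21 in shRUNX1+shRUNX3, 6.85 in shRUNX1+shRUNX2, 6.69 in shRUNX2+shRUNX3, 6.58 in shRUNX1, 6.29 in shRUNX2, 6.50 in shRUNX3 and 5.94 in shLuc. SPOPL read 7.0 in the triple knockdown, 6.94 in shRUNX1+shRUNX3, 6.44 in shRUNX1+shRUNX2, 6.36 in shRUNX2+shRUNX3, 6.41 in shRUNX1, 5.90 in shRUNX2, 6.14 in shRUNX3 and 5.78 in shLuc. VAPA read 9.20 in the triple knockdown, 8.89 in shRUNX1+shRUNX3, 8.59 in shRUNX1+shRUNX2, 8.47 in shRUNX2+shRUNX3, 8.00 in shRUNX1, 7.97 in shRUNX2, 8.09 in shRUNX3 and 7.63 in shLuc. For ACSL1, SPOPL (an adaptor of a CUL3 ubiquitin ligase) and VAPA (a tether of the endoplasmic reticulum to other membranes) shLuc was the lowest array and the triple knockdown the highest. Arrays with 2 RUNX shRNAs lay above those with 1, except that shRUNX1 (6.41) lay above shRUNX2+shRUNX3 (6.36) for SPOPL. The estimates were 1.34 (SE 0.112) for ACSL1, 1.24 (SE 0.107) for SPOPL and 1.65 (SE 0.142) for VAPA, each with a limma adjusted p of 0.0263. Leaving out single arrays gave adjusted p-values of 0.0438 to 0.438 for ACSL1, 0.0611 to 0.438 for SPOPL and 0.0361 to 0.438 for VAPA. SPOPL lost its call without any 1 of the 8 arrays, ACSL1 kept it only without shRUNX2 and VAPA only without shRUNX1.

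The additive fit also gives an error for the genes named above, and none of them but these 3 passed. LILRA2 was estimated at 1.68 (SE 0.399, limma adjusted p = 0.105), ITGAX at 1.39 (SE 0.323, adjusted p = 0.103) and ALDH1L2 at -2.26 (SE 0.478, adjusted p = 0.0926). E2F7 was estimated at -1.60 (SE 0.298, limma adjusted p = 0.0874) and ARSK at -1.47 (SE 0.192, adjusted p = 0.0632). The fit assumes that the effects of the 3 shRNAs add up, and it takes each effect from the 4 arrays with against the 4 without that shRNA. The plain sum of the 3 single differences is another measure and not the fit's estimate, which was -1.77 for E2F8. That sum subtracts the shared shLuc array 3 times, so a low or high shLuc value weighs more in the sum than in the measured difference. For E2F8 the sum was -0.34 and the measured difference -1.62, and for LILRA2 it was 0.10 and 1.5, while for CD38 the sum was 2.94 and the measured difference 1.64.

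Little separated the triple knockdown from shRUNX1+shRUNX3, the array that lacks only the RUNX2 shRNA. Between them 7 genes lay 2-fold higher (0.0588%) and 11 lower (0.0924%). The higher side included CTSE, an endosomal protease, with 4.25 in the triple knockdown and 3.18 in shRUNX1+shRUNX3, and ACBD7, an acyl-CoA binding protein (1.1). MANSC1 (0.71), HTR2B (0.58) and IGSF6 (0.53) were also above the pair array without reaching 2-fold. The S phase and mitosis medians were 0.15 and 0.18 above shRUNX1+shRUNX3, so the pair array had the lower division genes of these 2 arrays, and the lists of monocyte genes and lysosomal genes differed by 0.02 and -0.01.

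The RUNX motif itself (TGTGGT) was present in 11.1% of 45 windows of the 2-fold higher genes and 10.7% of 75 windows of the lower genes, against 9.8% for the tested genes and 13.2% for all promoters. It stood in 26.9% of 26 windows of the immunoglobulin-like and lectin receptors and 21.1% of 19 windows of the monocyte genes, which are shares of few windows. The PU.1 motif (GAGGAAGT) was present in 6.67% of the higher, 4.0% of the lower and 2.71% of the tested windows. The 2 windows below belong to higher genes with the RUNX motif, shown in capitals: chr19:54573540-54573839 (plus strand) for LILRA2 and chr1:9239597-9239896 (plus strand) for H6PD, where TTTGAA also occurs and is left in lower case.
LILRA2: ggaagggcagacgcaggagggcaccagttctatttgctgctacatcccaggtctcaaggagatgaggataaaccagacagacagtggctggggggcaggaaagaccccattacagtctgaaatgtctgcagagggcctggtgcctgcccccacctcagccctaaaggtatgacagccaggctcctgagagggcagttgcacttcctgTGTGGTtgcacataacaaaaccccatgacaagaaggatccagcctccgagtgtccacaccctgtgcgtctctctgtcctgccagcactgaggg
H6PD: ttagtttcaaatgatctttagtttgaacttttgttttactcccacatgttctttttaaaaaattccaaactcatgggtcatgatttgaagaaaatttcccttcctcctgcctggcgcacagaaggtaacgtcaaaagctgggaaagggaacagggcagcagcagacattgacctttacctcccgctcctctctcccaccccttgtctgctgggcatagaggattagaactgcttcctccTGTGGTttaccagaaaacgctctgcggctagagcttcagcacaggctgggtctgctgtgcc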

How the data were processed

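RNA of 11 MV4-11 cultures, 1 array per condition, was measured on Affymetrix arrays from biotinylated cDNA (WT PLUS kit, per the labels' protocols). The authors deposited log2 values, 1 per transcript cluster (probes summarised for the same locus). The submitters' processing notes name RMA, Transcriptome Analysis Console 1.0 and Affymetrix Expression Console 1.3.1. Their roles and the genome build are not given in the sources used here, and without detection p-values the signal over background is unknown.

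Of 53617 clusters, 23558 had 1 gene symbol, 2155 several and 27904 none listed in the platform annotation. 22271 of the 1-symbol clusters matched a RefSeq table (GRCh38.p14) by Entrez identifier, and 3 symbols were updated. Of 22109 genes, 618 had more than 1 cluster, and their cluster of highest mean was taken. A gene was tested where at least 1 of the 8 knockdown arrays reached 3.80, the median over the 1-symbol clusters, which left 11907 genes, 10396 of them protein-coding.

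The triple knockdown minus shLuc was counted at 2-fold without a test. limma 3.58.1 in R 4.3.3 (lmFit, eBayes, Benjamini-Hochberg over all tested genes, threshold 0.05) gave an additive fit of the 3 shRNAs on the 8 arrays (4 residual and 3.17 prior degrees of freedom) and a fit of 3 against 3 on the 6 other arrays (4 residual degrees of freedom). The additive spread includes any interaction between shRNAs. The limma script was tested on simulated data. Processing alternatives are in the closing section. The members, gene lists and tests were chosen with earlier results of these data known.

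The naming rule took the 30 highest and 30 lowest genes, the RUNX genes and CBFB, list members past 2-fold or among the 3 highest or lowest of a list, the 10 genes of smallest p per direction and fit, and the 10 highest and 10 lowest against shRUNX1+shRUNX3. Small RNAs, olfactory receptors, antisense, pseudogene and uncharacterised loci (9 of the 68 higher and 19 of the 106 lower genes) were counted but not named. Promoter sequences are from RefSeq. CD33 and HOXA9 have no cluster of their own and were not analysed here.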

Additional observations from a re-analysis of the deposited data

How the results depend on the processing

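No paired analysis was possible because each condition has 1 array and all arrays carry the same replicate number. Against shLuc, the counts of genes at least 2-fold higher and lower were within 1.5 times of 68 and 106 without the level filter, after quantile normalization, with array medians set equal and with the mean of a gene's clusters. The stricter level filter (6.08) left 36 higher genes. With the mean of the 4 arrays without the RUNX1 shRNA in place of shLuc there were 34 higher and 61 lower genes, and with shRUNX2, shRUNX3 and shRUNX2+shRUNX3 alone, a choice made after seeing the data, 27 and 56. At 1.5-fold there were 432 higher and 513 lower genes, and at 3-fold 4 and 5. The cause was not tested.

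Several list medians moved by more than the spread, and 5 lists with medians near 0 changed sign. Glycolysis genes were at -0.0139 against the 4-array mean and -0.0219 against the 3-array mean, semaphorins and plexins at 0.0121 and 0.0239 against the same means and 0.11 with the stricter filter, cell surface enzymes at -0.009 against the 3-array mean, fatty acid synthesis genes at -0.0326 with the stricter filter, and myeloid transcription factors at -0.0107 with array medians set equal. Without the level filter the median was 0.0824 for monocyte genes, 0.0727 for immunoglobulin-like and lectin receptors and 0.0235 for cytokine receptors. Against the 4-array mean it was 0.11 for cytokine receptors, 0.0679 for G protein-coupled receptors, -0.12 for nucleotide enzymes, -0.0582 for cholesterol genes and 0.20 for MHC genes, and against the 3-array mean it was 0.12 for cytokine receptors, 0.0619 for G protein-coupled receptors, -0.12 for nucleotide enzymes, -0.0244 for cholesterol genes, 0.14 for MHC genes and 0.17 for NRF2 genes. With the stricter filter it was -0.11 for nucleotide enzymes. The medians of the S phase, mitosis and histone lists were kept within their spreads of 0.26, 0.30 and 0.24. These spreads, which include any interaction between shRNAs, were wider than those of all other lists, the next being 0.09 for monocyte genes. Against the 3-array mean the mitosis median was -0.77.

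The additive fit called 134 higher and 88 lower genes with the stricter filter, which adjusts over fewer genes, and 94 and 44 with a trended and robust variance prior, beside 3 and 0. Leaving out 1 array at a time gave 0 to 2 higher and 0 to 2 lower genes. Without shRUNX1 the additive fit called 1 higher and 0 lower genes, and without shRUNX1+shRUNX2 0 and 0. The 3-against-3 fit called 0 genes in every alternative run, leave-outs included. Its limma counts at an unadjusted p under 0.05 were 1197 higher and 1157 lower genes without shRUNX1. Without shRUNX1+shRUNX2 they were 585 and 445, beside 644 and 509 with all 6 arrays. With 1 array per condition, no difference between the triple knockdown and shLuc has an error of its own.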

Other observations

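The lowest named gene in the triple knockdown was ANKFN1, and it did not follow the RUNX1 shRNA. It read 4.42 in the triple knockdown, 4.63 in shRUNX1+shRUNX3, 4.23 in shRUNX2+shRUNX3, 5.23 in shRUNX2 and 4.61 in shRUNX3, against 7.62 in shRUNX1+shRUNX2, 8.33 in shRUNX1 and 7.91 in shLuc. The difference of -3.49 from shLuc shrank to -1.07 against the mean of the 4 arrays without the RUNX1 shRNA. ALDH3B2, an aldehyde dehydrogenase, read 3.60 in the triple knockdown and 4.85 in shLuc, but 6.04 in shRUNX1 and 6.53 in shRUNX2.

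Several genes set shRUNX1+shRUNX3 apart from the triple knockdown while the triple knockdown lay near shLuc. SYCE2, a part of the meiotic synaptonemal complex, read 5.07 in the triple knockdown, 7.6 in shRUNX1+shRUNX3 and 5.28 in shLuc. CD22, an inhibitory receptor of B cells, read 2.76 in the triple knockdown, 4.11 in shRUNX1+shRUNX3 and 2.82 in shLuc. USP53 read 3.04 in the triple knockdown, 4.62 in shRUNX1+shRUNX3 and 3.04 in shLuc. Each of these rests on 1 array.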
